A study of Mus musculus with 9 samples.

Results

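Gene expression was compared between SRG3 cKO and WT Th17 cultures, that is, cultures in which naive CD4 T cells were driven towards T helper cells that secrete IL-17. The comparison used 6 arrays, 3 SRG3 cKO and 3 WT, of the 9 in the series. The other 3 arrays came from RORγt KO cultures and served to estimate the spread between arrays and to give values side by side. Of the genes named by a single symbol on the array, 22180 were tested, each through 1 probe set, the one with the highest mean over all 9 arrays. All 3 genotypes were treated alike. Splenic CD4 T cells that lacked CD25, were low in CD44 and high in CD62L were sorted and cultured for 60 h on antibodies to CD3 and CD28 (10 µg/ml each). The medium held TGF-β1 (1 ng/ml), IL-6 (30 µg/ml, as the labels write it) and, at 2 µg/ml each, antibodies that block IL-4 and IFN-γ. The labels describe the arrays of a genotype as biological replicates but do not say whether these were separate mice. The p-values therefore measure the spread between these samples, which may be technical. The labels name neither the Cre driver of the SRG3 deletion nor the mice's age, and do not say which part of the gene was deleted.

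SRG3, the product of Smarcc1 and also known as BAF155, is a core scaffold subunit of the Swi/Snf (BAF) complexes, which use ATP to move nucleosomes and so open or close regulatory DNA. Th17 cells arise when TGF-β and IL-6 signalling, the latter through STAT3, induces the nuclear receptor RORγt, which binds at Il17a, Il17f and Il23r. IL-23 acting on its receptor then sustains the cells, and their cytokines recruit neutrophils and defend epithelial surfaces.

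Smarcc1 checked the labels. Its log2 intensity was 10.13, 10.32 and 10.39 in the WT arrays and 8.47, 8.79 and 8.62 in the SRG3 cKO arrays, a 3.15-fold fall (adjusted p = 0.000207). The groups were far apart, but since the deleted part is not known, neither is whether the probe set lies inside it. The RORγt KO arrays read 10.12, 10.04 and 10.19, within or just below the WT range. The 5 measured genes on either side of Smarcc1 had log2 changes between -0.14 and 0.05 and none passed the test. The second principal component, which held 20.8% of the variance, placed the 3 SRG3 cKO arrays between 6.4 and 12.5 and the other 6 arrays between -6.79 and 0.553. The first, which held 28.8%, did not separate WT from SRG3 cKO. WT arrays ran from -11.8 to -1.38 there and SRG3 cKO arrays from -3.27 to 3.98. All 6 measured CD4 T cell markers (Cd3e, Cd3d, Cd3g, Cd4, Cd28 and Zap70) were read well above the array median, Cd4 at 11.23 in WT and 11.41 in SRG3 cKO. None of these 6, of 11 B cell and MHC class II markers, of 13 myeloid markers or of 7 CD8 T, NK and γδ T cell markers passed the test. Summed over its members, the CD4 T cell list ran from 63.7 to 64.4 in WT and from 64.7 to 65.4 in SRG3 cKO, and the CD8 T, NK and γδ T cell list from 48.3 to 48.5 and from 47.9 to 48.1. The groups did not overlap in either sum, and the part of these shifts in the results below was not tested. The B cell sums (83.8 to 87.4 in WT, 85.3 to 86.2 in SRG3 cKO) and the myeloid sums (88.6 to 88.8 and 88.7 to 89.0) overlapped. None of the 5 erythroid markers was among the genes tested, so erythroid RNA was not analysed here.

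The regulatory sequences of the genes on which the results turn are shown first. They are the 250 bases upstream of the annotated start of Il17a, Il17f and Il23r, the signature Th17 genes that fell, and of Nedd4, the gene with the largest rise, from RefSeq (GRCm38.p6), written 5′ to 3′ on the gene's strand. The windows are chr1:20730655-20730904 on the plus strand for Il17a, chr1:20784271-20784520 on the minus strand for Il17f, chr6:67491856-67492105 on the minus strand for Il23r and chr9:72662081-72662330 on the plus strand for Nedd4, the first of its annotated starts. Capitals mark matches, on either strand, to AGGTCA, the core sequence that ROR-family receptors bind, to TGANTCA, which AP-1 factors bind, or to TTCNNNGAA, which STAT factors bind; no 2 printed matches overlap.
Il17a: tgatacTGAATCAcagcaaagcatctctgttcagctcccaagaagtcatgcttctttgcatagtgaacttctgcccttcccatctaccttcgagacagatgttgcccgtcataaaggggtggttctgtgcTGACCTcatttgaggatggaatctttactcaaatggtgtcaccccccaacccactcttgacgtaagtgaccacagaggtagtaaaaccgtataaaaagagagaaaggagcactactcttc
Il17f: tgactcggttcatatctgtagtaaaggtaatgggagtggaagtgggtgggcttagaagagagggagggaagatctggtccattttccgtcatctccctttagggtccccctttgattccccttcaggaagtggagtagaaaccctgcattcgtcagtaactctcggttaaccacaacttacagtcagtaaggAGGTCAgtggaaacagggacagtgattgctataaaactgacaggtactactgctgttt
Il23r: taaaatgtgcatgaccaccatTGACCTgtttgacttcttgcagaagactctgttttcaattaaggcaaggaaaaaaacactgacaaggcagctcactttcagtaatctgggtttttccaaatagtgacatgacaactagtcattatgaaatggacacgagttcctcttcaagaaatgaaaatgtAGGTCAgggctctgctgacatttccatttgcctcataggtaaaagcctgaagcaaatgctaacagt
Nedd4: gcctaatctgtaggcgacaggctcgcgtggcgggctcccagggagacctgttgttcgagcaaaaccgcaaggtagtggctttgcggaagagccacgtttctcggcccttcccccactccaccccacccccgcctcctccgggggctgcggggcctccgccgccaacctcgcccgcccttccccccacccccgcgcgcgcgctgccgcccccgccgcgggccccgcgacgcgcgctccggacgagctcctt
Il17a held AGGTCA, read on the opposite strand as TGACCT, 120 to 115 bases upstream of its start, and TGAATCA, a match to TGANTCA, 244 to 238 bases upstream. Il17f held AGGTCA at 58 to 53 bases. Il23r held it in both orientations, at 229 to 224 and at 66 to 61 bases. The Nedd4 window held none of the 3 motifs. Such matches were common: of all 32851 windows of this length, AGGTCA occurred in 4607, TGANTCA in 2217 (6.75%) and TTCNNNGAA in 2306 (7.02%). In the 20520 windows of measured genes the shares were 12.6%, 6.35% and 6.70%. Among the windows of genes that rose in SRG3 cKO the shares were 16.1%, 8.93% and 10.7% of 56, and among those of genes that fell 13.6%, 4.55% and 2.27% of 44. A match describes the letters only.

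Few genes passed the test between SRG3 cKO and WT, and cytokine, chemokine and cytokine receptor genes were among the largest falls. In SRG3 cKO against WT, 116 of 22180 genes (0.523%) passed an adjusted p of 0.05, 62 of them higher (0.280%) and 54 lower (0.243%). Il17a fell by 2.19 on the log2 scale, the largest fall, followed by Smarcc1 (-1.65), Il3 (-1.49), Ccn1 (-1.04) and Ccl3 (-0.99). Nedd4 rose most, by 1.24, followed by Sdcbp2 (0.97) and Mir29a (0.96). Beyond a log2 change of 1 lay 4 falls (Il17a, Smarcc1, Il3 and Ccn1) and 1 rise (Nedd4), and beyond 0.5 there were 22 falls and 17 rises. The median absolute change was 0.42 among the called genes and 0.05 among all genes, whose median change was -0.01. All 116 called genes had WT and SRG3 cKO arrays that did not overlap, as did 13.6% of all genes (7.04% higher and 6.56% lower in SRG3 cKO). An unadjusted p under 0.05 was found for 11.2% of all genes, the share to set beside the counts at that level in the lists below.

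**Figure D1:**
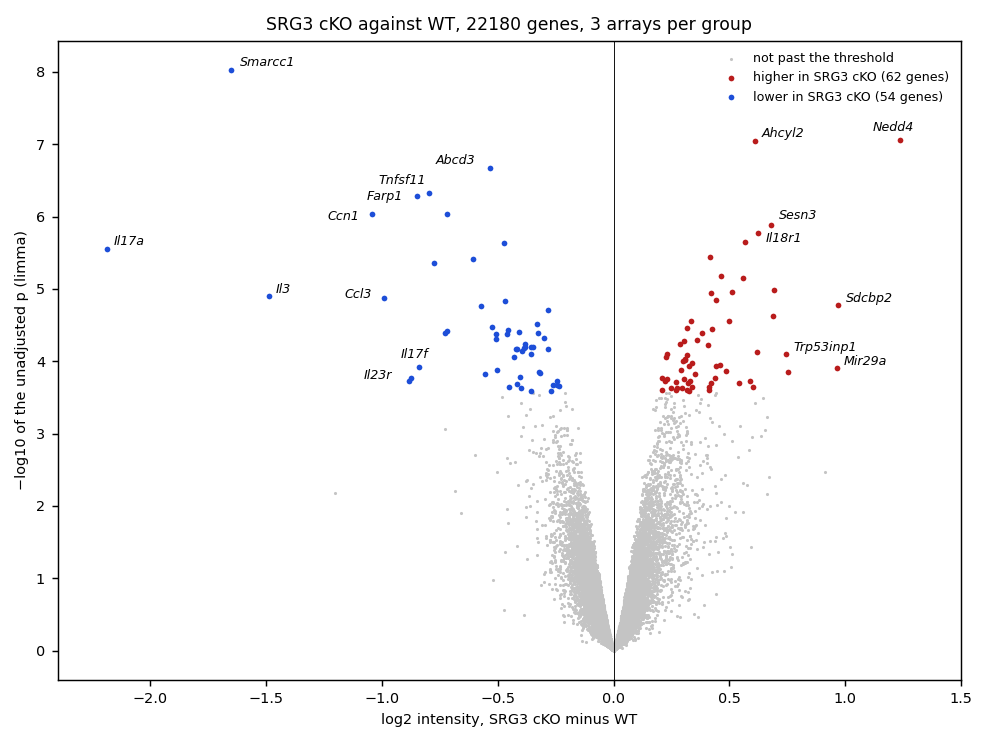
Each point is 1 of 22180 genes, with its log2 intensity in SRG3 cKO minus WT (3 arrays each) on the x axis and the −log10 of the unadjusted limma p on the y axis; red and blue mark the 62 genes higher and the 54 lower at an adjusted p of 0.05. The falls reach -2.19 (Il17a) and the rises 1.24 (Nedd4).

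Among the Swi/Snf genes, Smarcc1 alone passed the test, 1 of 26 measured subunit genes, and the median change of the list was 0.01. Smarcc2, its paralogue BAF170, which can take the same place in the complex, read 9.93, 9.99 and 10.06 in WT and 10.04, 9.99 and 10.09 in SRG3 cKO. Its difference was 0.05 with a 95% interval of -0.05 to 0.15, and the groups overlapped. The interval of Smarca4, the ATPase BRG1, ran from -0.09 to 0.08. Smarca2, the alternative ATPase BRM, was 0.21 higher without passing (adjusted p = 0.342), with groups that did not overlap. Of 27 genes of the other chromatin remodellers and 34 genes of histone and DNA modification, 0 passed in limma; of these, 6 in each list had an unadjusted p under 0.05. With the replicate number as a block, explained below, Ezh1, a Polycomb methyltransferase (0.32, block adjusted p = 0.0324), and Tet2, which oxidizes methylcytosine (0.32, block adjusted p = 0.0452), passed.

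Il17a, the signature cytokine of Th17 cells, read 11.14, 10.09 and 10.83 in the WT arrays and 8.53, 8.30 and 8.66 in the SRG3 cKO arrays. The lowest WT array stood 1.43 above the highest SRG3 cKO array, and the RORγt KO arrays, at 7.04, 6.74 and 6.72, were lower still. Both genotypes were set against the same 3 WT arrays, here and wherever RORγt KO values are given. The change from WT to SRG3 cKO was -2.19 (95% interval -2.69 to -1.68), a 4.56-fold fall with an adjusted p of 0.00478. In RNA from whole cultures, fewer cells that express a gene and less RNA per cell cannot be told apart. Il17f, its neighbour on chromosome 1 and dimerization partner, read 12.38, 12.05 and 12.68 in WT and 11.53, 11.46 and 11.61 in SRG3 cKO, a 1.79-fold fall (adjusted p = 0.0361). The groups were separate, and the RORγt KO arrays at 10.49, 10.48 and 10.25 again lay below both. Il17f depended on the arrays used: it kept its call in 1 of 9 fits that left out an array, and its adjusted p reached 0.143 without SRG3 cKO array 1. Il23r, the receptor chain that makes cells responsive to IL-23, read 10.26, 10.21 and 10.24 in WT and 9.29, 9.22 and 9.56 in SRG3 cKO, a 1.85-fold fall (adjusted p = 0.0451). The 3 WT arrays were close to each other, and the RORγt KO arrays were at 7.63, 7.95 and 7.25. The fall of Il23r lost its call with the replicate block (adjusted p = 0.0552) and in 7 of 9 fits without 1 array, with 0.179 without WT array 3.

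Of 21 measured Th17 cytokine and receptor genes, 5 fell and none rose; their median change was -0.03 against -0.01 for all genes. The list includes genes already seen to fall in these samples, so its count is not independent evidence of a direction. Besides the 3 above, Cd5l, a scavenger-receptor family protein that restrains Th17 pathogenicity, fell by 0.77 (8.07 to 7.30, adjusted p = 0.00614), with WT arrays from 7.95 to 8.27 and SRG3 cKO arrays of 7.27, 7.29 and 7.34. Cd5l lost its call in 1 of 9 fits, without SRG3 cKO array 1 (adjusted p = 0.0538). Il22, an effector cytokine acting on epithelia, passed with -0.51, but from a mean of 3.70 to 3.20, below the 25th percentile of all deposited values (6.12), where the array reads little signal. It kept its call in 4 of 9 fits, with an adjusted p of 0.0996 without WT array 3. Il9 read 7.27, 6.74 and 7.23 in WT and 6.44, 6.32 and 6.31 in SRG3 cKO, and Csf2, which encodes GM-CSF, 8.22, 7.70 and 7.44 against 7.34, 6.90 and 7.06. Neither passed (adjusted p = 0.0953 and 0.225), though both did with the replicate block (0.0241 and 0.0264). Il21, a cytokine that Th17 cells also make, was 0.22 higher without passing (adjusted p = 0.384), and Rora, the related receptor, was 0.22 higher (0.269).

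Il3, a growth factor for myeloid progenitors made by activated T cells, read 9.31, 8.75 and 8.63 in WT and 7.47, 7.09 and 7.67 in SRG3 cKO, a 2.81-fold fall (adjusted p = 0.0127). Its RORγt KO arrays stood at 9.96, 10.00 and 9.80, above every WT array. Il3 kept its call in 8 of 9 fits without 1 array and reached an adjusted p of 0.065 without SRG3 cKO array 1. It was the only 1 of 25 other interleukin and colony-stimulating factor genes to pass. The type 2 cytokine genes Il5 and Il13, which share its chromosomal cluster, had changes of -0.12 and -0.11, neither past the threshold. Ccl3, the inflammatory chemokine MIP-1α, read 10.41, 10.01 and 10.28 in WT and 9.24, 9.16 and 9.33 in SRG3 cKO, a 1.99-fold fall (adjusted p = 0.0128). RORγt KO arrays, at 10.63, 10.22 and 10.57, lay in or above the WT range. Ccl3 kept its call in 5 of 9 fits and had an adjusted p of 0.0748 without WT array 3. Its neighbour Ccl4 differed by -0.35 (adjusted p = 0.221), and Ccl3 was the 1 gene of 23 chemokine genes to pass.

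Tnfsf11 encodes RANKL, the TNF-family ligand through which T cells drive osteoclasts and signal to dendritic cells. It read 9.20, 9.20 and 9.43 in WT and 8.41, 8.46 and 8.56 in SRG3 cKO, a 1.74-fold fall (95% interval of the log2 change -0.95 to -0.65, adjusted p = 0.00192). The RORγt KO arrays, at 9.33, 9.24 and 9.31, lay inside the WT range. Tnfsf11 passed in all 9 fits without 1 array and was the single gene of 16 TNF-family ligands to pass. Tnf itself had a change of 0.04, Tnfsf8, the CD30 ligand, -0.35 (adjusted p = 0.112), and Lta, lymphotoxin α, 0.25, which passed with the replicate block only (0.0484). Of 23 TNF receptor genes 0 passed in limma, with 4 at an unadjusted p under 0.05. Tnfrsf9, the costimulatory receptor 4-1BB, was 0.66 higher in arrays that did not overlap (adjusted p = 0.0776, and 0.0389 with the block).

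**Figure D2:**
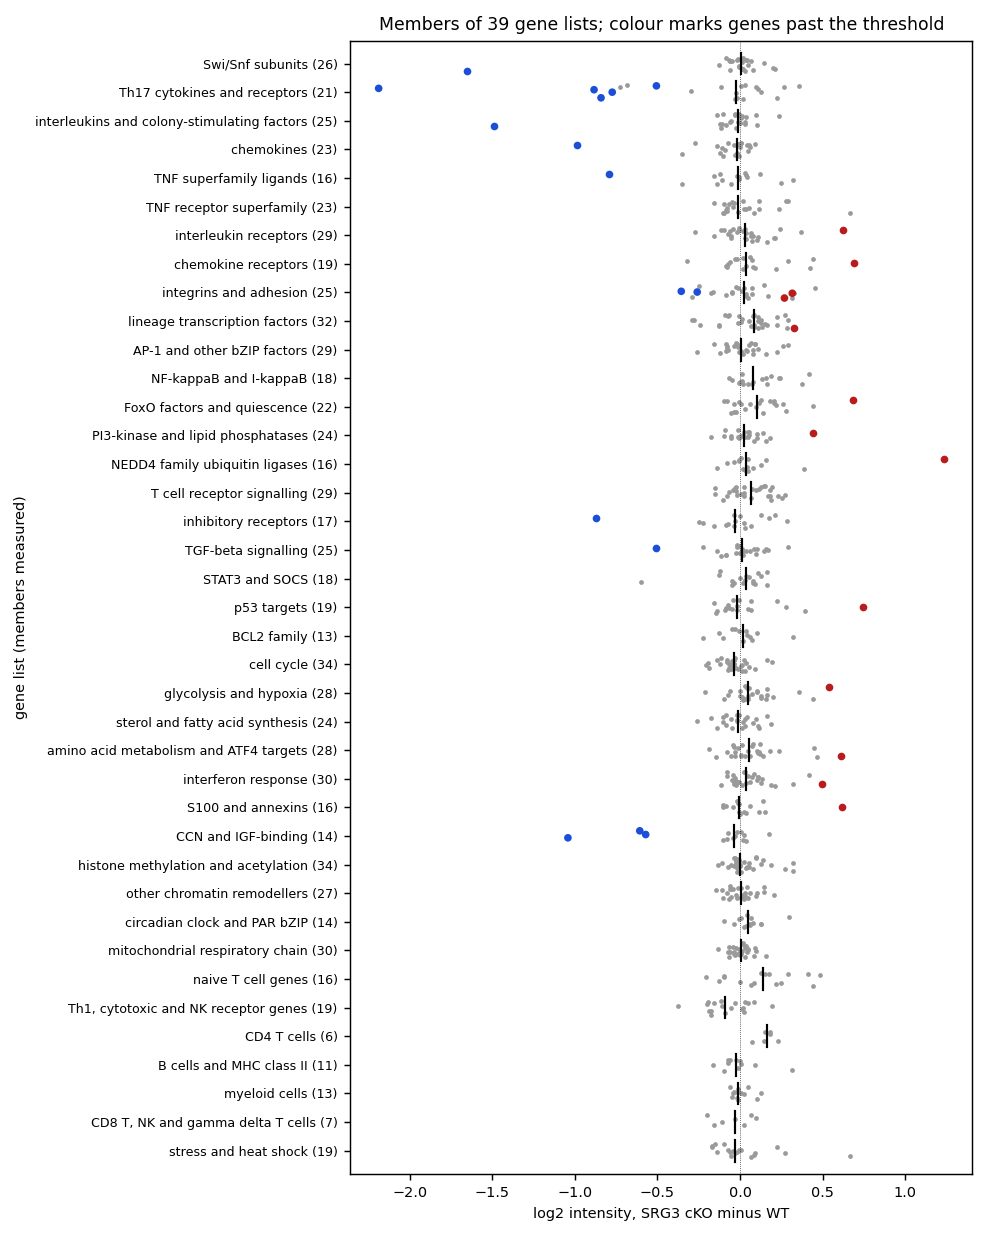
Each point is a measured member of a gene list (number measured in brackets), with its log2 intensity in SRG3 cKO minus WT on the x axis, vertical offset for visibility only; red and blue points passed the adjusted p of 0.05 and black bars are list medians. Medians lie between -0.09 and 0.17, while single members such as Il17a, Smarcc1, Il3 and Nedd4 stand apart.

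Cell surface receptors moved in both directions. Il18r1, the ligand-binding chain of the IL-18 receptor, read 7.44, 7.48 and 7.43 in WT and 8.11, 8.05 and 8.07 in SRG3 cKO, a 1.54-fold rise (adjusted p = 0.00375). Arrays within each group differed by far less than the groups did, the RORγt KO arrays were at 7.20, 7.45 and 7.25, and the rise passed in all 9 fits without 1 array. It was 1 of 29 interleukin receptor genes to pass; Ifngr1, the IFN-γ receptor, was 0.37 higher without passing (adjusted p = 0.317). Gpr83, a G protein-coupled receptor known from regulatory T cells, read 7.77, 7.62 and 7.83 in WT and 8.65, 8.28 and 8.36 in SRG3 cKO, a 1.61-fold rise (adjusted p = 0.0179). It was the only member of a list of 19 chemokine and other receptor genes to pass, and no chemokine receptor of the list did. Gpr83 lost its call in 3 of 9 fits, with 0.0918 without WT array 2. Cxcr3, a receptor of Th1 cells, was -0.32 (adjusted p = 0.0525, and 0.0180 with the block). Gpr171 fell by 0.53 (10.24 to 9.72), and its dimmer second probe set read -0.25. Lilrb4a, an inhibitory receptor of the immunoglobulin superfamily, read 9.47, 9.09 and 8.89 in WT and 8.22, 8.49 and 8.13 in SRG3 cKO, a 1.83-fold fall (adjusted p = 0.0443), and was 1 of 17 inhibitory receptor genes to pass. Lilrb4a lost its call in all 9 fits without 1 array, with adjusted p from 0.0631 to 0.158 (the latter without SRG3 cKO array 1).

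Of 25 integrin and adhesion genes, 2 rose and 2 fell, with a median of 0.02. Itgav, the αv integrin that can activate latent TGF-β, rose by 0.32 (10.06 to 10.37, adjusted p = 0.0216), and Cd48, a ligand of CD2 and CD244, by 0.27. Itgal, the α chain of LFA-1, fell by 0.26 (10.49 to 10.23), and Cd44, the hyaluronan receptor that marks activated T cells, by 0.36 (8.91 to 8.56). These changes were small: Itgal, Cd44 and Cd48 were called in 0 of 9 fits without 1 array (largest adjusted p 0.186, 0.181 and 0.158), and Cd48 also lost its call with the block (0.0559). Itgav kept its call in 4 of 9 (0.0993 without WT array 2), and its dimmer second probe set read 0.09. Cd96, a receptor of the nectin-binding family, was 0.45 higher and passed with the block only (0.0144). Ulbp1, a ligand of the NKG2D receptor, rose by 0.60 (7.59 to 8.19, adjusted p = 0.0481) and passed in 1 of 9 fits.

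Of 32 lineage-defining transcription factors measured, Ikzf3, the Ikaros-family factor Aiolos, rose by 0.33 (8.46 to 8.78, adjusted p = 0.0488), and none fell; the median of the list was 0.08. The rise of Ikzf3 lost its call with the block (0.0661) and in each of 9 fits without 1 array. Tbx21, which directs Th1 cells, was -0.24 (adjusted p = 0.315), Foxp3, which directs regulatory T cells, 0.11 (0.662) and Ahr, the aryl hydrocarbon receptor, -0.29 (0.189). Irf4 (0.27) and Stat5b (0.29) passed with the block only (0.0426 and 0.0381). Of 29 AP-1 and other bZIP genes 0 passed in limma (5 at an unadjusted p under 0.05), and of 18 NF-κB and I-κB genes 0 passed (6 at an unadjusted p under 0.05). In the latter list Tnfaip3, the deubiquitinase A20 that restrains NF-κB, was 0.42 higher and Nfkbie, which encodes IκBε, 0.38 higher, both past the threshold with the block only (0.0208 and 0.0248).

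Regulators of transcription outside these lists also passed. Vdr, the vitamin D receptor, fell by 0.38 (7.83, 7.85 and 7.79 in WT against 7.46, 7.37 and 7.50 in SRG3 cKO). Cited2, a coregulator that binds CBP and p300, fell by 0.47 (9.87 to 9.40, adjusted p = 0.0131), and Tbl1xr1, a subunit of the NCoR and SMRT corepressor complexes, by 0.43. Hivep3 fell by 0.33 while its relative Hivep1, a zinc finger protein that binds κB-like sites, rose by 0.30. Zfp36l2, an RNA-binding protein that promotes decay of AU-rich mRNAs, rose by 0.29 without keeping its call with the block (0.0526). Phf20, a reader of methylated lysine, rose by 0.30, and Tspyl2, a nucleosome assembly protein family member on the X chromosome, by 0.32. Crabp2, which carries retinoic acid to the nucleus, fell by 0.73 (9.57, 9.74 and 9.73 against 8.74, 9.06 and 9.06, adjusted p = 0.0216). Among these 9 genes none passed in all 9 fits without 1 array. Cited2 passed in 6, Crabp2 and Hivep3 in 4, and Vdr, Tbl1xr1 and Zfp36l2 in 2. Hivep1 passed in 1, and Phf20 and Tspyl2 in 0.

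Nedd4 encodes a HECT ubiquitin ligase that marks membrane and signalling proteins for turnover. It read 8.68, 8.47 and 8.81 in WT and 10.00, 9.81 and 9.85 in SRG3 cKO, a 2.35-fold rise (95% interval of the log2 change 1.04 to 1.43, adjusted p = 0.000664). The lowest SRG3 cKO array lay 1.00 above the highest WT array, and the RORγt KO arrays, at 8.87, 8.85 and 8.73, stayed near WT. The rise passed in all 9 fits without 1 array and in the fit of the 6 arrays alone (adjusted p = 0.0184). None of the other 15 measured ligases and adaptors of the NEDD4 and related families passed, the median of the 16 being 0.03. Nedd4l was 0.08 higher, Itch differed by -0.08, and Cblb, which raises the threshold of T cell activation, was 0.39 higher (adjusted p = 0.266). Hectd2, another HECT ligase, rose by 0.51 (7.81 to 8.32, adjusted p = 0.0119), and Usp28, a deubiquitinase, by 0.27, the latter lost with the block (0.0608).

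**Figure D3:**
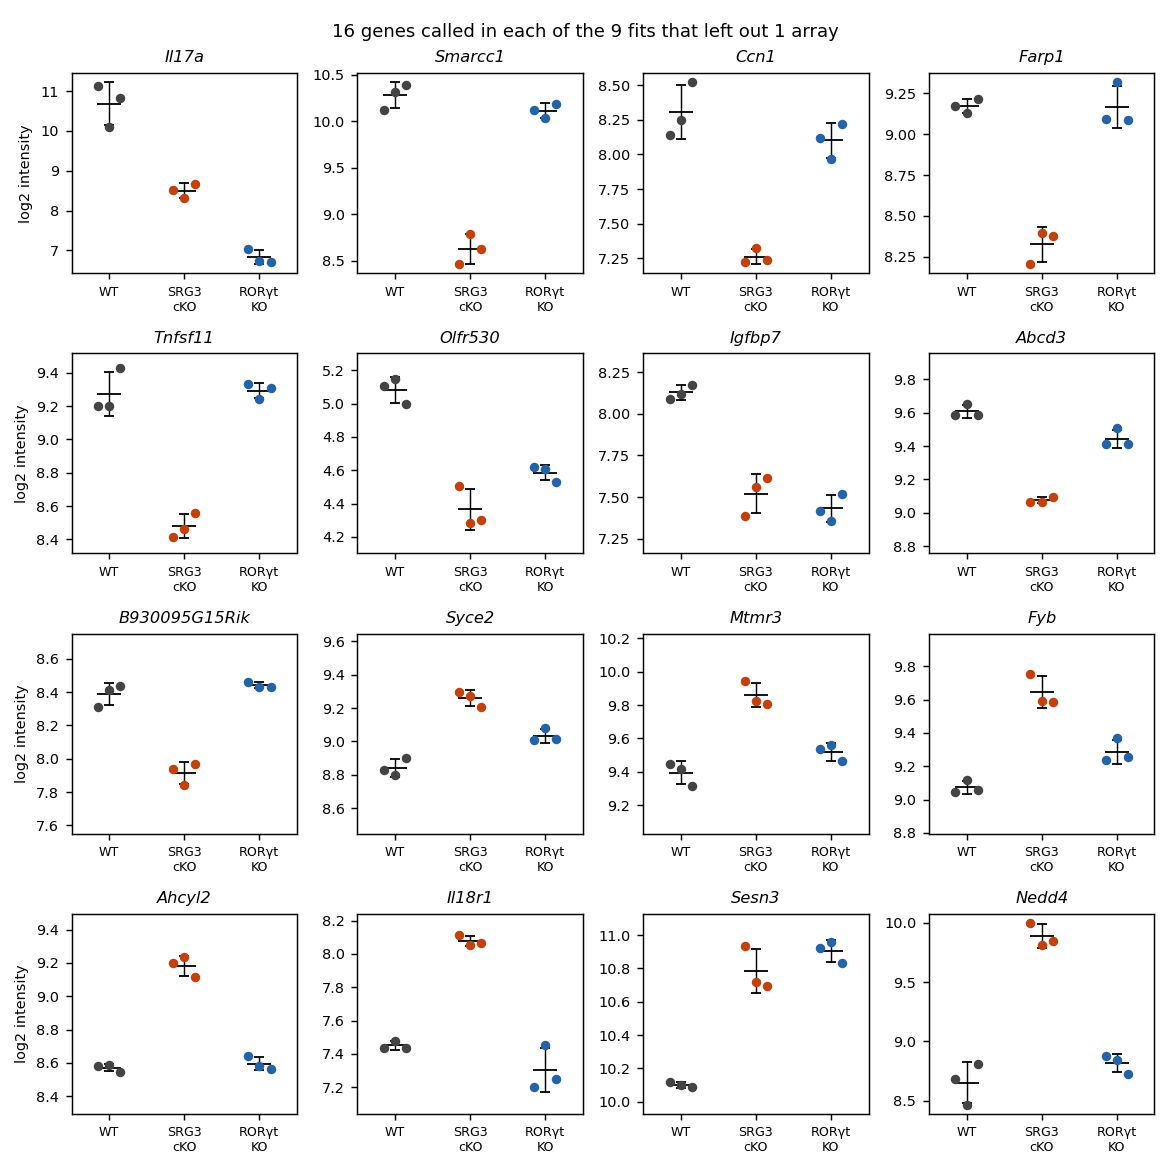
Log2 intensity on each array (points, ordered left to right as arrays 1 to 3 within a genotype) for the 16 genes that passed in each of the 9 fits that left out 1 array, with the mean and SD of the 3 arrays; each panel has its own y axis. In every panel the 3 SRG3 cKO points lie apart from the 3 WT points, while the RORγt KO points lie near WT for Nedd4, Tnfsf11 and Farp1 and near or beyond SRG3 cKO for Il17a, Igfbp7 and Sesn3.

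Genes of growth control were the next group. Sesn3, a stress-induced inhibitor of mTORC1 and a FoxO target, read 10.12, 10.10 and 10.09 in WT and 10.94, 10.72 and 10.70 in SRG3 cKO, a 1.60-fold rise (adjusted p = 0.00319) that passed in all 9 fits without 1 array. RORγt KO arrays, at 10.92, 10.96 and 10.83, were as high. Of 22 FoxO and quiescence genes Sesn3 alone passed; the median was 0.10, with 15 above 0. Naive T cell genes had a median of 0.14, against -0.01 for all genes. In limma 0 of 16 passed, and 12 had an unadjusted p under 0.05, as did 11.2% of all genes. Ccr7, the lymph node homing receptor, was 0.44 higher (adjusted p = 0.23). Of these 16, Dapl1 was 0.48 higher and passed with the block only (0.0467). Trp53inp1, a p53 target involved in autophagy, read 8.78, 9.05 and 8.83 in WT and 9.72, 9.68 and 9.51 in SRG3 cKO, a 1.68-fold rise (adjusted p = 0.0288), 1 of 19 p53 target genes to pass. It passed in 2 of 9 fits, with 0.14 without SRG3 cKO array 1, and its RORγt KO arrays read 9.56, 9.93 and 9.51. Pik3r5, the p101 regulatory subunit of PI3-kinase γ, rose by 0.44 (8.52 to 8.96), 1 of 24 genes of the PI3-kinase list, and passed in 1 of 9 fits (0.163 without WT array 3). Mtmr3, a phosphatase of phosphoinositides, rose by 0.47 (9.39 to 9.86, adjusted p = 0.00867) and passed in all 9.

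Of 29 proximal T cell receptor genes 0 passed in limma, with a median of 0.07 against -0.01 for all genes. An unadjusted p under 0.05 was found for 11 of the 29, and for 11.2% of all genes. Fyb, the adaptor ADAP that links the receptor to integrin activation, was outside that list and rose by 0.57 (9.05, 9.12 and 9.06 against 9.76, 9.59 and 9.59, adjusted p = 0.00423); it passed in all 9 fits without 1 array. Of 25 TGF-β signalling genes, Ldlrad4, a membrane protein that inhibits TGF-β signalling, fell by 0.51 (7.34 to 6.83, adjusted p = 0.0242), and Tgfbr3, betaglycan, was 0.29 higher with a call under the block only (0.0364). Ldlrad4 passed in 4 of 9 fits, with 0.106 without WT array 3. Of 18 STAT3 and SOCS genes 0 passed in limma (4 at an unadjusted p under 0.05), although Socs2, a cytokine-induced feedback inhibitor, read 8.03, 8.20 and 8.29 in WT and 7.44, 7.53 and 7.74 in SRG3 cKO (-0.60, adjusted p = 0.143). Spred1, an inhibitor of Ras and MAP kinase signalling, fell by 0.36, and Rras2, a Ras-related GTPase, rose by 0.21. Spred1 passed in 2 of 9 fits and Rras2 in 0. The scaffold kinase Peak1 rose by 0.41, and Sdcbp2, the PDZ protein syntenin-2, by 0.97 (8.89, 8.62 and 8.42 against 9.77, 9.54 and 9.54, adjusted p = 0.0143). Sdcbp2 passed in 5 of 9 fits, with 0.0851 without WT array 2, and Peak1 in 1 of 9.

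Of 14 measured CCN and IGF-binding genes, 3 fell and none rose, where 0.243% of all genes were called lower. The list was chosen with earlier results of these data known, so its count is not independent evidence of a direction. Ccn1 (Cyr61), a secreted protein that binds integrins, read 8.14, 8.25 and 8.52 in WT and 7.22, 7.32 and 7.24 in SRG3 cKO, a 2.06-fold fall (adjusted p = 0.00259). Its RORγt KO arrays, at 8.12, 7.97 and 8.22, were close to WT. Igfbp7, a secreted IGF-binding protein, read 8.09, 8.12 and 8.18 in WT and 7.39, 7.56 and 7.61 in SRG3 cKO, a 1.52-fold fall (adjusted p = 0.00578), with 7.42, 7.36 and 7.52 in RORγt KO. Igf2r, the receptor that carries IGF2 and mannose 6-phosphate proteins to lysosomes, fell by 0.57 (9.05 to 8.48, adjusted p = 0.0143). Ccn1 and Igfbp7 passed in all 9 fits without 1 array and Igf2r in 6 (0.0798 without SRG3 cKO array 3). The median of the 14 measured genes was -0.04, against -0.01 for all genes. Gnptab, which makes the mannose 6-phosphate tag that Igf2r binds, fell by 0.30 (9.36 to 9.06).

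Cytoskeletal genes split. Farp1, a FERM domain protein, read 9.17, 9.13 and 9.22 in WT and 8.20, 8.40 and 8.38 in SRG3 cKO, a 1.80-fold fall (adjusted p = 0.00192), with 9.10, 9.32 and 9.09 in RORγt KO. The long non-coding RNA B930095G15Rik, next to Farp1 on chromosome 14, fell with it, by 0.47 (adjusted p = 0.00423), and both passed in all 9 fits without 1 array. Whether these probe sets tell overlapping transcripts apart was not tested, and a second, dimmer probe set of B930095G15Rik read -0.06. Nckap1, a subunit of the WAVE complex that nucleates branched actin, read 8.96, 8.78 and 8.64 in WT and 9.55, 9.54 and 9.37 in SRG3 cKO, a 1.62-fold rise (adjusted p = 0.0119), and passed in 7 of 9 fits (0.0677 without WT array 2). Tubb6, a β-tubulin, fell by 0.72 (9.24 to 8.52), Lsp1, an actin-binding protein of leukocytes, by 0.35, and Snx9, which shapes endocytic membrane, by 0.42. Spire1, an actin nucleator, rose by 0.32. S100a6, a calcium-binding protein, rose by 0.62 (7.09 to 7.70, adjusted p = 0.0277), 1 of 16 S100 and annexin genes to pass, and kept its call in 2 of 9 fits (0.121 without SRG3 cKO array 1).

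Metabolic enzymes passed one by one. Ahcyl2, a relative of S-adenosylhomocysteine hydrolase, read 8.58, 8.59 and 8.55 in WT and 9.20, 9.23 and 9.11 in SRG3 cKO, a 1.53-fold rise (adjusted p = 0.000664), with 8.64, 8.58 and 8.57 in RORγt KO. Abcd3, a peroxisomal transporter of fatty acids, read 9.58, 9.65 and 9.59 in WT and 9.07, 9.07 and 9.09 in SRG3 cKO, a 1.45-fold fall (adjusted p = 0.00117). The spread within both groups was small against the difference, and both genes passed in all 9 fits without 1 array. Glud1, glutamate dehydrogenase, rose by 0.56 (10.86 to 11.41, adjusted p = 0.00867) and passed in 6 of 9. The adjoining gene on chromosome 14, the transcribed pseudogene Gm3219, rose by 0.43, and whether its signal is separable from that of Glud1 was not tested. Acat1 (0.25), a mitochondrial enzyme of ketone and isoleucine breakdown, and Eci2 (0.22), an isomerase of fatty acid breakdown, rose. Acat1 passed in 0 of 9 fits and Eci2 in 1. Aldoc, a glycolytic aldolase, rose by 0.54 (8.24 to 8.78, adjusted p = 0.0463), 1 of 28 glycolysis and hypoxia genes to pass, in 1 of 9 fits (0.179 without WT array 3). In the same list Egln3, a prolyl hydroxylase that acts on hypoxia-inducible factors, was 0.36 higher and passed with the block only (0.0427). Ctps2, a CTP synthase, rose by 0.48, and Rbks, ribokinase, by 0.23, while Slc25a13, the mitochondrial aspartate and glutamate carrier, fell by 0.33. Ctps2, Rbks and Slc25a13 passed in 1, 0 and 4 of 9 fits. Npc2, which moves cholesterol out of lysosomes, rose by 0.31, whereas 0 of 24 sterol and fatty acid synthesis genes passed in limma (3 at an unadjusted p under 0.05).

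Samhd1, a dNTP hydrolase that is also interferon-induced, read 10.62, 10.61 and 10.58 in WT and 11.20, 11.01 and 11.10 in SRG3 cKO, a 1.41-fold rise (adjusted p = 0.0199). RORγt KO arrays were at 11.21, 11.42 and 11.19, and the rise passed in 5 of 9 fits without 1 array (0.0932 without WT array 3). It was 1 of 30 interferon-response genes to pass, and the median of that list was 0.04. Ifi27, also interferon-induced, was outside the list and rose by 0.42 (7.02 to 7.44, adjusted p = 0.0463). Ifi27 passed in 1 of 9 fits. Of cell cycle and respiratory chain genes none passed: 0 of 34 cell cycle genes (3 at an unadjusted p under 0.05, median -0.04) and 0 of 30 respiratory chain genes (1 at an unadjusted p under 0.05) passed in limma. Among 19 Th1, cytotoxic and NK receptor genes, 13 BCL2 family genes, 14 clock genes and 19 stress and heat shock genes, 0 passed; 3, 4, 2 and 6 of them had an unadjusted p under 0.05. Crtam, a receptor of cytotoxic lymphocytes in the first of these lists, was -0.37 and passed with the block only (0.0380). Mlkl, the effector of necroptosis, fell by 0.40 and lost its call with the block (0.0543). Atg10, an enzyme of autophagosome formation, rose by 0.29.

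The other called genes had smaller or less documented roles. Among the falls were Nkain1 (-0.55), Slco4a1 (-0.45), Slco3a1 (-0.32), both organic anion transporters, Atp2b1 (-0.28), a plasma membrane calcium pump, Galnt3 (-0.39), which starts O-glycosylation, and Adamts3 (-0.46), a procollagen protease. Tspan2, Cobll1, Cemip2, Heg1, Carhsp1, Lrmp, Ehd4, Bnip2, Hoxa4 and Ppfibp1 fell by 0.42 or less. Among the rises were Ext1 (0.28), which builds heparan sulfate, Tecpr1 (0.33), Dram2 (0.35), Ntrk3 (0.42), a neurotrophin receptor, Ahnak (0.32), a large scaffold protein, Enpp4 (0.31), Syce2 (0.42), Cep97 (0.44), Amz2 (0.44), Zdhhc15 (0.41), Lrrc8b (0.38), Nhsl1 (0.33), Tdrkh (0.31), Tceal9 (0.32), Eri2 (0.23) and Park7 (0.23). Syce2 passed in all 9 fits without 1 array. Amz2, Heg1 and Tceal9 had a second, dimmer probe set, which read -0.01, 0.03 and 0.24. Of the 116, 6 had a mean below the 25th percentile of all deposited values: Olfr530 (-0.72), Olfr1061 (-0.50), Il22, Adamts3, A230072C01Rik (0.34) and Cfap300 (0.41). The olfactory receptor genes and Vmn1r43, a vomeronasal receptor (-0.24), are not known as T cell genes; Olfr530 passed in all 9 fits at levels of 5.11, 5.14 and 4.99 against 4.50, 4.29 and 4.30. Fthl17f (-0.42) and Ccdc63 (0.34), known from testis, also passed, but in 1 and 0 of 9 fits without 1 array. Ccdc63 had an identical value, 8.14, on all 3 WT arrays, which lowers the estimate of its spread. Other called genes also held ties, among them Tnfsf11 (9.20) and Ldlrad4 (7.33), each with 1 value on WT arrays 1 and 2. The reason for these ties was not tested.

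**Figure D4:**
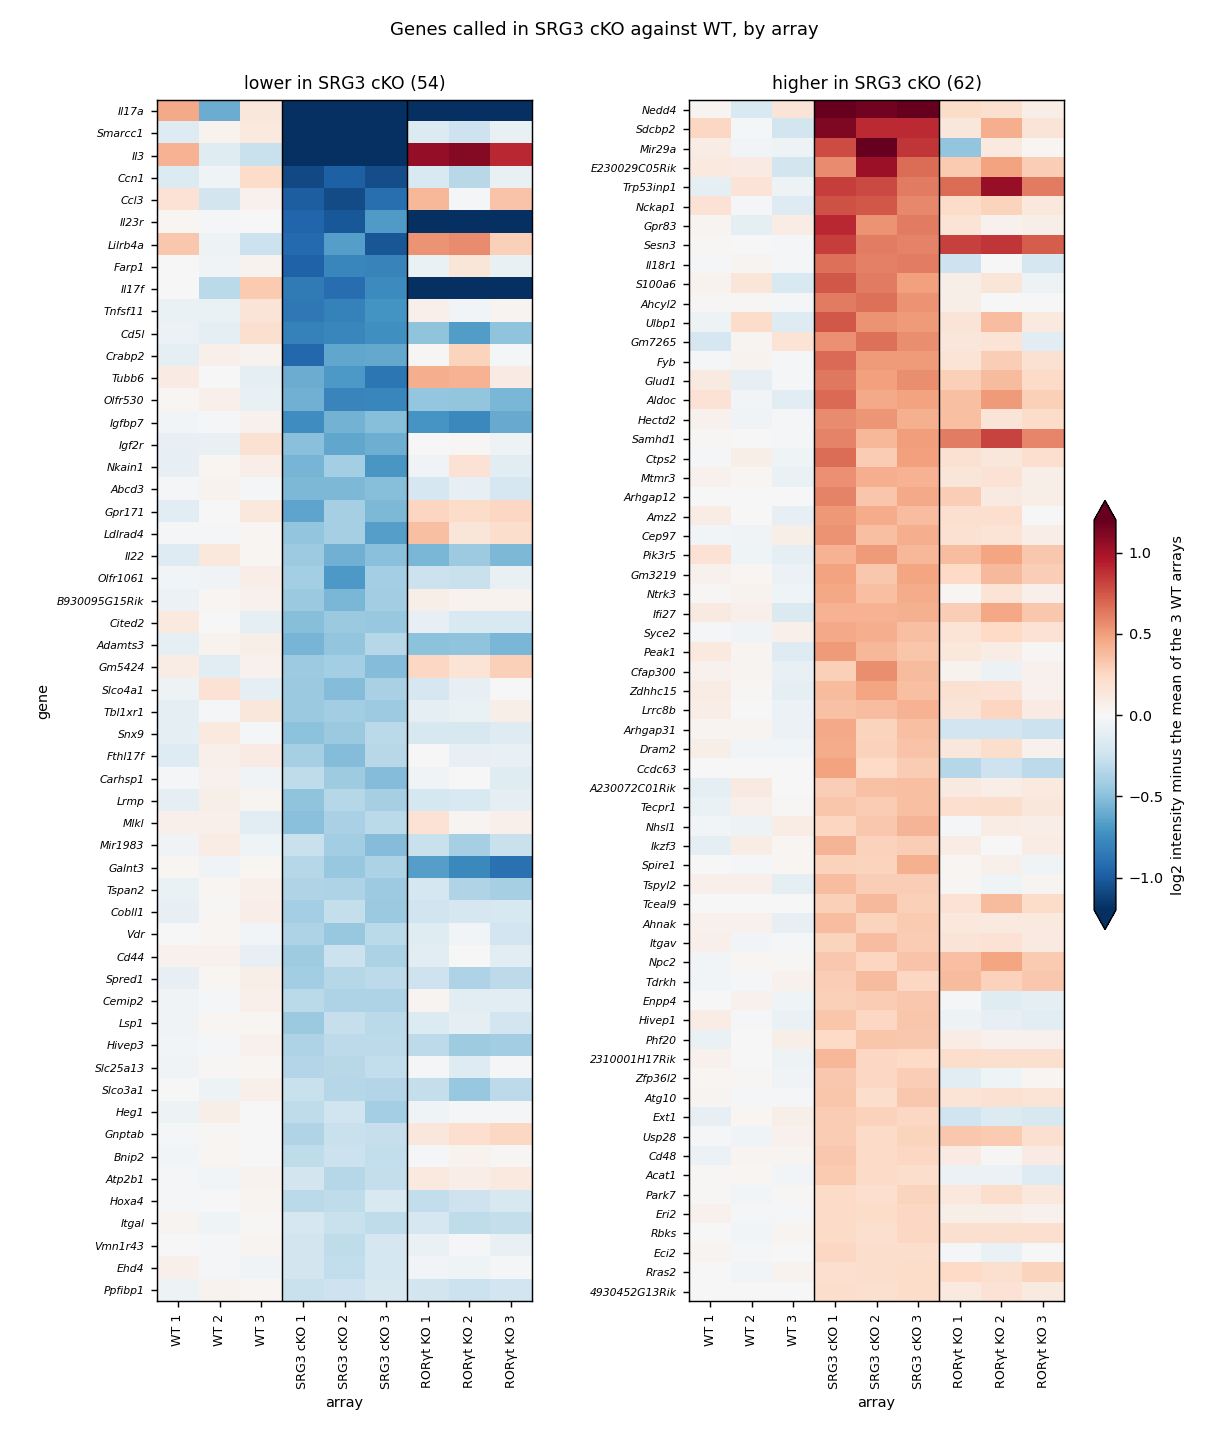
Log2 intensity on each of the 9 arrays minus the mean of the 3 WT arrays for the 54 genes lower (left) and the 62 higher (right) in SRG3 cKO, ordered by the size of the change; colours saturate beyond the ends of the bar. All 3 SRG3 cKO columns share the direction of the call in every row, as the choice of genes requires, and the RORγt KO columns range from stronger (Il17a, Il23r, Galnt3) to opposite (Il3).

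By type, 106 of the called genes were protein coding, 5 long non-coding, 2 microRNA and 2 pseudogene genes, and 1, Gm7265 (0.59), had no match in RefSeq. Mir29a rose by 0.96 (adjusted p = 0.0378), from 6.40, 6.27 and 6.24 in WT to 7.09, 7.55 and 7.17 in SRG3 cKO, with 5.83, 6.42 and 6.33 in RORγt KO. It was 1 of 2 called among 478 microRNA genes and kept its call in 2 of 9 fits without 1 array (0.163 without WT array 3). The probe sets carry the name of the gene and not of a mature arm, so mature levels were not measured here. Mature miR-29a-3p and miR-29b-3p, the latter from the clustered Mir29b-1, are shown since they share the seed, bases 2 to 8, in capitals (RefSeq, GRCm38.p6). The third sequence belongs to Mir1983, which fell by 0.40 and lost its call with the block (0.0528).
mmu-miR-29a-3p: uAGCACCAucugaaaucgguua
mmu-miR-29b-3p: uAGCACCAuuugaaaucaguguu
mmu-miR-1983: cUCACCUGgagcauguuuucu
Mir29b-1 itself read 4.45, 3.94 and 4.23 in WT and 4.61, 4.82 and 4.27 in SRG3 cKO, below the 25th percentile of all deposited values and with overlapping groups (0.36, adjusted p = 0.425). The long non-coding E230029C05Rik rose by 0.75 (6.76, 6.75 and 6.43 against 7.22, 7.67 and 7.32) and was called in 0 of 9 fits without 1 array.

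In genome order, 3 pairs of adjacent measured genes were both called: Il17a with Il17f, Farp1 with B930095G15Rik, and Glud1 with Gm3219, and the members of each pair moved in the same direction. Chromosome 9, which carries Smarcc1, held 9 called genes of 1254 (0.718%), 7 of them higher; Nedd4, the nearest of these to Smarcc1, was 342 measured genes away. The X chromosome held 6 of 899, and chromosome 3 had the highest share with 10 of 1051 (0.951%).

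The labels do not state a pairing. Replicate numbers were taken to pair the arrays of the 2 genotypes from correlations in these same data. In the fit of all 9 arrays the block also grouped the RORγt KO arrays by number, and that grouping was not checked. The block on the number raised the count of calls to 195 (0.879%). Of the 116 genes, 102 kept their call with the block and 14 lost it: Il23r, Slco4a1, Mlkl, Mir1983, Vmn1r43, Ppfibp1, 4930452G13Rik, Park7, Cd48, Usp28, Zfp36l2, Ikzf3, Ccdc63 and Cfap300, while 93 were added. Of the uncalled genes open to naming under the rule given below, 15 gained a call with this block. With the same block in the 6 compared arrays alone, 1 did, and 25 of the 116 kept their call. Each of the 116 had the same sign in all 3 numbered pairs. Any pairing would give this where the arrays of the groups do not overlap, so it is no evidence of a pairing. Fewer genes passed whenever 1 array was left out, which also leaves fewer degrees of freedom. The part of any single array in this was not tested. With 1 array left out, 87, 28 and 23 genes passed without WT arrays 1, 2 and 3, and 18, 43 and 22 without SRG3 cKO arrays 1, 2 and 3. Of the 116 themselves, 62, 27 and 22 kept their call without WT arrays 1, 2 and 3, and 18, 38 and 21 without SRG3 cKO arrays 1, 2 and 3. Leaving out RORγt KO arrays 1, 2 and 3, which bear on the estimate of spread, gave 51, 77 and 64 calls. Of the 116, 16 passed in all 9 of these fits, 75 in 1 to 8 and 25 in none. The 16 were Il17a, Smarcc1, Ccn1, Farp1, Tnfsf11, Olfr530, Igfbp7, Abcd3 and B930095G15Rik among the falls and Nedd4, Sesn3, Il18r1, Ahcyl2, Fyb, Mtmr3 and Syce2 among the rises. Among the 6 arrays of the 2 genotypes alone 13 passed, all within the 116: Smarcc1, Farp1, Abcd3, Ccn1, Il23r, Tnfsf11 and Olfr530 lower and Il18r1, Ahcyl2, Nedd4, Sesn3, Fyb and Hectd2 higher. Il17a, whose WT arrays spread from 10.09 to 11.14, had an adjusted p of 0.0591 there. Without the 3 arrays numbered 1 only Smarcc1 passed.

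**Figure D5:**
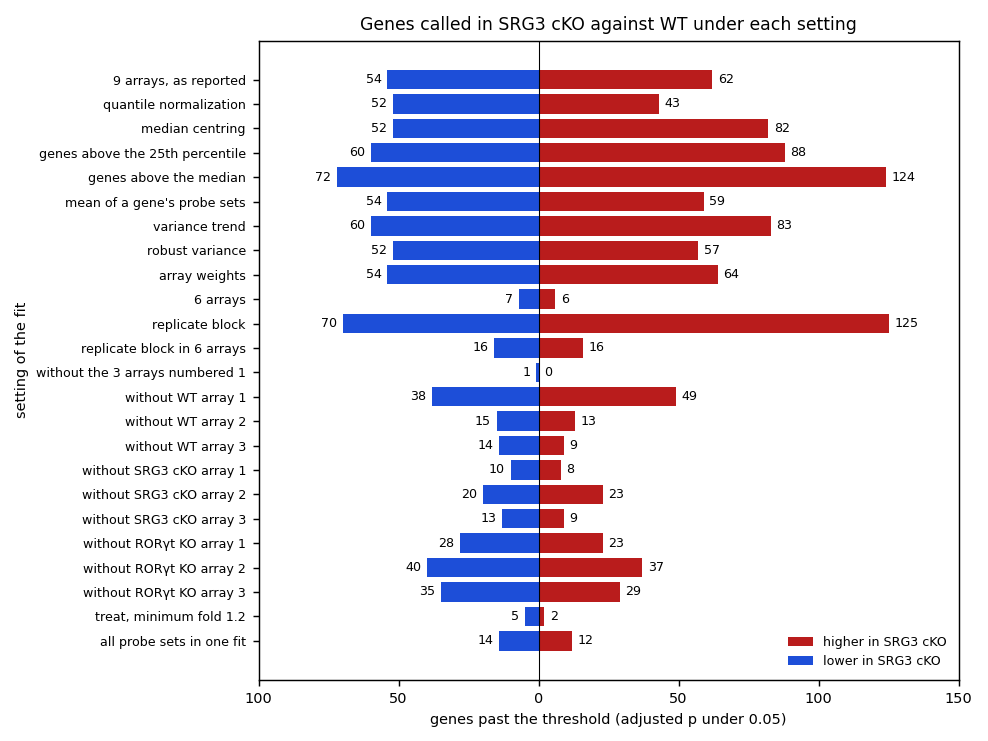
Number of genes past an adjusted p of 0.05 in SRG3 cKO against WT, higher (red, to the right) and lower (blue, to the left), under each setting of the fit. The count is 62 and 54 as reported, 125 and 70 with the replicate block, and falls to 6 and 7 with the 6 arrays alone.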

How the data were processed

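Samples, groups and culture conditions were taken from the labels. The log2 probe set intensities were used as the authors deposited them; background correction, summarization and normalization are not given in the sources used here. Per the labels, total RNA was labelled with biotin by a GeneChip WT kit. Of 41345 probe sets, 23521 carry 1 gene symbol, 1814 several and 16010 none; symbols were updated by gene ID (23328 matched) with RefSeq GRCm38.p6, and the brightest probe set represented each of 22180 genes. Array medians were 7.12 to 7.14; the number of arrays limits the precision.

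limma 3.58.1 in R 4.3.3 fitted all 9 arrays in 1 model (contrast SRG3 cKO minus WT, two-sided) with Benjamini-Hochberg adjustment over all genes and a threshold of 0.05. Folds come from log2 differences. Deviations from the group means correlated at 0.287, 0.186 and 0.116 between same-numbered WT and SRG3 cKO arrays, all over 0.1. Between unlike-numbered arrays the correlations ran from -0.234 to 0.0772. The labels do not state a pairing, so the numbers were taken to pair the arrays on these correlations alone. The block took in all 9 arrays, and the numbers of the RORγt KO arrays were not checked in this way. The fit with the number as a block is given where it changes a call. The procedure was tested on simulated data. Any called gene could be named, and from each list its first 4 measured members and up to 4 others with the largest change; Il21, Rora and Irf4 fall outside this rule and were named after their values were seen. Lists and named genes were chosen with earlier results of these data known. Alternatives covered normalization, centring, dim-probe filters, probe set choice, variance models, array weights, the arrays used, the block and a minimum fold. Motifs were counted in windows of 250 bases.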

Additional observations from a re-analysis of the deposited data

Results flagged for a closer look

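Probe sets without a single gene symbol were left out of the comparison of genes, and some of them differed more between SRG3 cKO and WT than any named gene. The change was 5.17 on the log2 scale for probe set 17551165, which read 6.53, 6.28 and 6.13 in WT, 11.7, 11.3 and 11.5 in SRG3 cKO and 6.55, 6.48 and 6.14 in RORγt KO. Probe sets 17550683, 17550687 and 17551169 rose by 4.28, 4.08 and 4.06. Probe set 17549058, whose values are repeated in 9 probe sets, rose by 2.54, from 4.91, 5.01 and 5.28 to 7.79, 7.35 and 7.67. In each of these the RORγt KO arrays lay near WT. Fitted together with all probe sets, 20 of the 16010 without a symbol passed, all 20 higher in SRG3 cKO and with 12 distinct sets of values, and 2 of the 1814 with several symbols passed, both lower. No table used here names their genes, and what they detect was not tested.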

How the results depend on the processing

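The replicate block moved the count of called genes from 116 to 195 (125 higher), and the same block in the 6 arrays alone gave 32 (16 higher, 16 lower). The 6 arrays without the block gave 13 (6 higher, 7 lower), and leaving out the 3 arrays numbered 1 gave 1 (0 higher, 1 lower). Only genes above the median level gave 196 (124 higher), and a minimum fold of 1.2 gave 7 (2 higher, 5 lower). All probe sets in 1 fit, chosen after seeing the data, gave 26 among those with 1 gene symbol (12 higher, 14 lower). Leaving out 1 array gave 18 to 87 called, 8 to 49 higher and 10 to 40 lower. Removing arrays leaves fewer degrees of freedom; beyond that the cause of these shifts was not tested. Quantile normalization gave 95 and median centring 134, and the other settings 109 to 148. None of the 116 called genes changed sign under any of the 22 alternatives. That was largely fixed in advance. Their WT and SRG3 cKO arrays do not overlap, so leaving out arrays cannot change a sign. The variance models and the minimum fold leave the log2 change as it was. The number of arrays, and low signal for the dim genes, limit what can be called.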
